A study of Mus musculus with 16 samples.

Results

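The genes described here are the NF-kB subunits and their inhibitors: Nfkb1, Nfkb2, Rel, Rela, Relb, Nfkbia, Nfkbib, Nfkbie and Tnfaip3. They were taken by symbol, 9 of the 23337 gene symbols in the count files of 16 RNA-seq libraries, and all 9 passed the filter on low counts that left 12952 genes to test. NF-kB factors are dimers of these subunits. In resting T cells IkB proteins, among them the products of Nfkbia, Nfkbib and Nfkbie, hold them in the cytoplasm, and signals from the T cell receptor, CD28 and receptors of the TNF family lead to IkB phosphorylation and release of the dimer. Several inhibitor genes are themselves NF-kB targets in mammals, which closes a negative feedback loop, and Tnfaip3 encodes A20, a ubiquitin-editing enzyme that dampens the pathway upstream.

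All 16 libraries came from C57BL/6 mouse CD4+ T cells of the genotype Dgcr8f/f Tbet-/- CD4-cre, so that the controls also lacked T-bet (gene Tbx21), the Th1 master regulator, and carried the floxed allele of Dgcr8, a microRNA-processing gene that the Cd4-driven Cre deletes in T cells. Spleen and lymph node cells were activated with antibodies to CD3 and CD28 in 10 units/ml IL-4 for 3 days, then rested in 20 units/ml IL-2 for 2 days. On day 1 and day 4 they received 500 nM of a synthetic mimic of miR-23a, miR-24 or miR-27a, or a control mimic, with 4 libraries in each of these 4 groups. Live cells positive for the Rosa YFP reporter were sorted before RNA extraction. The labels do not say which libraries came from separate mice, so p-values measure the spread between these libraries, and in such bulk RNA fewer cells of a type and less RNA per cell cannot be told apart.

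Control replicate 1 held 51474 reads on genes, against 2120408 to 13714841 in the other 15 libraries. A single read there equals 16.3 CPM (reads of a gene scaled to a common library total), so its member values rest on 0 to 19 reads and 3 reads, the limit that a count of 0 allows, equal 48.8 CPM. T cell markers summed to 1351 to 1629 CPM in the miR-24 group and to 1758 to 2340 CPM in the others. Markers of B cells, myeloid cells and granulocytes summed to at most 22.2 CPM in any library, those of CD8 T cells to at most 35.7, of NK cells to at most 79.3 and of dendritic cells to at most 91.0 CPM. Dgcr8 counted 32.5 to 58.4 CPM outside control replicate 1; a whole-gene count does not check the deletion of part of the gene. Tbx21 had 0 to 58 reads in each library.

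The sequences below are the 3p arms of the mouse miR-23a, miR-24-2 and miR-27a genes, which lie together on chromosome 8, from RefSeq (GRCm38.p6). They are shown because base pairing of the seed (bases 2 to 8, in capitals) with a 3′ UTR is the main way a microRNA finds its targets. The labels name neither the arm nor the sequence of any mimic, so the 3p arm is an assumption. The 3 seeds differ from each other.
miR-23a-3p: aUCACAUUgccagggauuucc
miR-24-3p: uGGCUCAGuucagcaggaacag
miR-27a-3p: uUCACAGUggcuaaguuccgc

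Of the 9 members, 4 held a seed match to any of the mimics in the longest annotated 3′ UTR (GENCODE annotation, GRCm38). A match here is an 8mer (pairing to bases 2 to 8 followed by an A), a 7mer-m8 (bases 2 to 8 alone) or a 7mer-A1 (bases 2 to 7 followed by an A). Among 12020 tested genes with an annotated 3′ UTR, 25.2% held such a match for miR-23a, 27% for miR-24 and 29.8% for miR-27a. These shares are per mimic, so the count of 4 members, taken over all mimics, cannot be compared with them. The share of genes with a match to any mimic is not given here. Tnfaip3 held 1 match for each mimic, Nfkb2 held 2 for miR-24, and Rel and Nfkbib held 1 each for a pair of mimics. By mimic, the members with a match were Tnfaip3 and Rel for miR-23a, and Tnfaip3, Nfkb2 and Nfkbib for miR-24. For miR-27a they were Tnfaip3, Rel and Nfkbib. No match lay in the 3′ UTRs of Nfkb1, Rela, Relb, Nfkbia or Nfkbie. The strand of the transcript is shown as DNA, with the match in capitals after 8 bases and followed by 8 (8mers) or 9 (7mers). A match is a description and does not show pairing in these cells.
Tnfaip3, miR-23a 8mer, chr10:19001049-19001072: tcattgttAATGTGAAatggttat
Tnfaip3, miR-24 7mer-m8, chr10:19002385-19002408: agcagttcCTGAGCCtggctgcca
Tnfaip3, miR-27a 7mer-m8, chr10:19002657-19002680: acagtggtACTGTGAtccagaccc
Nfkb2, miR-24 8mer, chr19:46312275-46312298: gcttctgtCTGAGCCAggccccag
Rel, miR-23a 7mer-A1, chr11:23741838-23741861: aaagttacATGTGAAattagcttg
Rel, miR-27a 7mer-m8, chr11:23736875-23736898: ctttgtatACTGTGAtttttgttg
Nfkbib, miR-27a 8mer, chr7:28758600-28758623: cgatggccACTGTGAAtagcagct
The plus strand carries Nfkb2, and Tnfaip3, Rel and Nfkbib lie on the minus strand.

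No member passed the test in any of the 6 comparisons between groups. This is an edgeR quasi-likelihood test with replicate number as a block, Benjamini-Hochberg adjustment over all 12952 genes and a threshold of 0.05 on the adjusted p. With miR-23a 0 of 9 members were called against control, where 0.425% of all genes were called, with miR-24 0 against 4.56%, and with miR-27a 0 against 3.07%. At an unadjusted p under 0.05 the counts were 2, 3 and 1 members, where 17.0%, 20.3% and 21.8% of all genes reached that level. Between mimics 0 of 9 were called for miR-24 against miR-23a (all genes 5.38%), for miR-27a against miR-23a (2.95%) and for miR-27a against miR-24 (4.42%), with 1, 0 and 0 members at an unadjusted p under 0.05 (all genes 18.4%, 15.9% and 19.4%). A single test of any difference among the 4 groups also called 0 members, against 9.68% of genes (1.94% without the block), and its smallest adjusted p was 0.0966 for Relb. Limma voom called none either. DESeq2 called Relb against control under miR-24 and under miR-23a, Rel between miR-24 and miR-23a, and both genes for any difference. The shares of all genes that DESeq2 called are not given here, so its counts cannot be set against a background. Over all alternatives the calls among all genes ranged from 12 to 364 (miR-23a against control) and from 110 to 1490 (miR-24 against control). They ranged from 142 to 1705 between miR-24 and miR-23a, and from 251 to 2323 for any difference. Without the block edgeR again called 0 members in every comparison, against 0.131%, 0.849% and 0.170% of genes in the comparisons with control and 1.10%, 0.548% and 0.880% between mimics.

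Most members had positive log2 fold changes against control: 6 of 9 with miR-23a, 8 under miR-24 and 7 under miR-27a, where 52.93%, 53.06% and 51.36% of all genes did. The median over the members was 0.31, 0.34 and 0.17 on the log2 scale, against 0.04, 0.04 and 0.02 over all genes. The 3 comparisons share their control libraries and several members varied together between libraries, so these counts are not separate observations. The signs also depended on the GC score of library composition described below. With it in the fit, Nfkb1, Nfkb2, Nfkbib and Nfkbie fell below 0 with miR-23a. Nfkb1, Nfkbib, Nfkbie and Tnfaip3 did so with miR-27a, and Nfkbib and Tnfaip3 with miR-24, where Rel turned positive. Standard errors of the members ranged from 0.17 to 0.43 on the log2 scale. On simulated counts for miR-24 against control, 19 of 50 genes changed by 1 on the log2 scale were recovered, and 42 of 50 changed by 1.5. These are shares over genes of many levels and spreads, not of the members themselves. The simulated counts held no difference between replicate numbers and took each gene's spread from the trend over level. Only genes above a minimum level were changed, so recovery in the real libraries can differ.

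**Figure D1:**
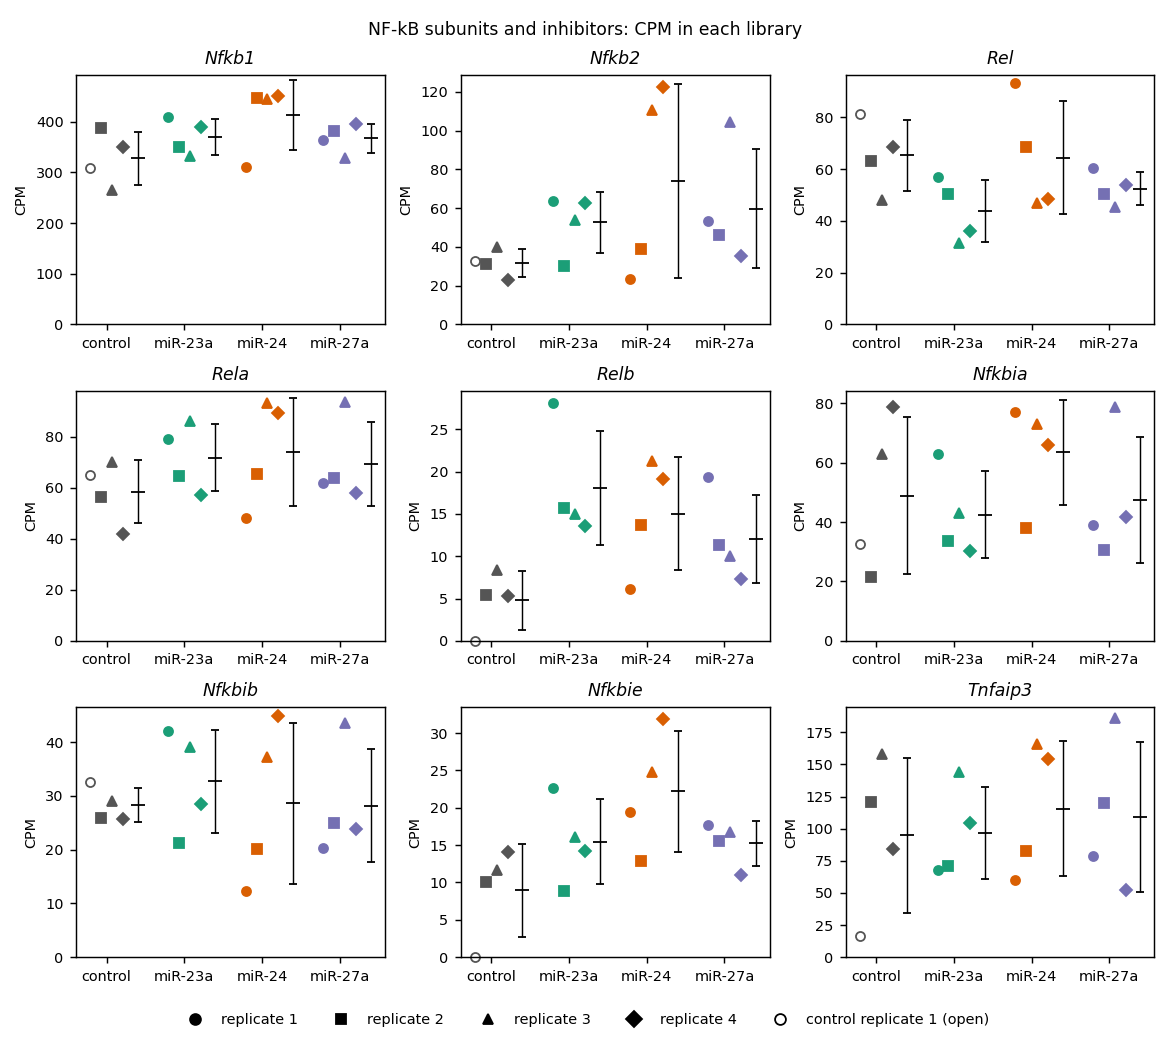
CPM of each member (vertical axis, linear) in each of the 16 libraries, by mimic group (horizontal axis), with the marker shape giving the replicate number and bars showing the mean ± SD of 4 libraries. The open circle is control replicate 1 with its 51474 reads. Relb in the miR-23a group (13.5 to 28.1 CPM) stands above all control libraries (0 to 8.38 CPM), and for the other 8 members each mimic group overlaps the control range.

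Relb (chr7:19606217-19629438, minus strand, GRCm38) encodes the transactivating partner of p52 in the non-canonical branch of the pathway. Its control libraries held 0, 5.39, 8.38 and 5.33 CPM in replicates 1 to 4, from 0, 55, 93 and 35 reads. The miR-23a libraries held 28.1, 15.7, 15.04 and 13.5 CPM, and the miR-24 libraries 6.18, 13.7, 21.2 and 19.1 CPM. The miR-27a libraries held 19.4, 11.3, 10.0 and 7.26 CPM. All 4 miR-23a libraries lay above all control libraries, and it was the only member with no overlap between a mimic group and control, a pattern that 3.18% of all genes showed in this direction (4.35% without control replicate 1). In either direction 5.20% of genes showed no overlap for miR-23a, 6.78% for miR-24 and 6.47% for miR-27a. The miR-24 and miR-27a groups each overlapped the control range through 1 library.

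The fitted log2 fold change of Relb was 1.43 ± 0.42 (SE) with miR-23a, a 2.69-fold higher level with a 95% interval from 1.46 to 4.97 fold and an adjusted p of 0.129. With miR-24 it was 1.25 ± 0.41 (adjusted p 0.0875) and with miR-27a 0.80 ± 0.43 (adjusted p 0.281). Without the block the adjusted p was 0.258, 0.179 and 0.340. Leaving out miR-24 replicate 1 brought the adjusted p to 0.0381 (miR-23a) and 0.00353 (miR-24). DESeq2 gave 0.0347 and 0.0376. Leaving out control replicate 1 gave 1.39 and 1.22 on the log2 scale (adjusted p 0.164 and 0.117). It also depended on measures of library composition described below. With a library score of transcript length in the fit it was 1.13 (miR-23a) and 0.48 (miR-24), and with a score of GC content 0.55 and 0.61 (adjusted p 0.111, 0.572, 0.801 and 0.363).

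Nfkb2 (chr19:46304320-46312385, plus strand) encodes p100, the precursor of p52 and an inhibitor of Relb before it is processed. Its control libraries held 32.6, 31.4, 40 and 22.7 CPM. The miR-24 libraries held 23.2, 38.9, 110.7 and 122.5 CPM, and the miR-27a libraries 53.2, 46.0, 104.4 and 35.3 CPM. The miR-23a libraries held 63.5, 30.1, 54.1 and 62.7 CPM. Replicates 3 and 4 of miR-24 and replicate 3 of miR-27a were the high libraries, and every mimic group overlapped the control range. The log2 fold change was 1.15 ± 0.43 with miR-24 (95% interval 0.25 to 2.05, adjusted p 0.141), 0.92 ± 0.43 with miR-27a (adjusted p 0.227) and 0.80 ± 0.43 with miR-23a (adjusted p 0.350). Its 3′ UTR holds 2 matches to the miR-24 seed, of which the 8mer is shown above. The miR-24 value passed without miR-24 replicate 1 (1.43, adjusted p 0.0140), and the miR-27a value in a fit of only those libraries and their controls (0.85, adjusted p 0.00656). With the length score in the fit the 3 values were 0.17, 0.23 and 0.41. Exons of Nfkb2 overlap those of Psd and of the non-coding gene AC114539.1 on the opposite strand, and the strand setting of the counting is not given in the sources used here, so reads in those stretches cannot be assigned with certainty.

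Rel (chr11:23736847-23770970, minus strand) encodes c-Rel, the subunit most closely tied to lymphocyte activation. Its control libraries held 81.4, 63.0, 48.2 and 68.6 CPM, and its miR-23a libraries 57.1, 50.3, 31.4 and 36.2 CPM. The miR-24 libraries held 93.4, 68.7, 47.0 and 48.6 CPM and the miR-27a libraries 60.3, 50.3, 45.5 and 53.9 CPM. Within each replicate number the miR-23a library was below the control library, and the 2 groups overlapped across numbers. The log2 fold change was -0.61 ± 0.20 with miR-23a (95% interval -1.02 to -0.20, unadjusted p 0.00575, adjusted p 0.152), -0.06 ± 0.20 with miR-24 and -0.30 ± 0.20 with miR-27a. In all 24 alternatives the miR-23a value stayed below 0, from -0.69 to -0.38, and was not called. Between mimics Rel was higher with miR-24 than with miR-23a by 0.55 ± 0.18 (adjusted p 0.0992), the smallest p of a member between mimics, and both DESeq2 (adjusted p 0.0176) and the fit with the length score (0.0201) called it. Its 3′ UTR holds matches for miR-23a and miR-27a and none for miR-24.

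Rela (chr19:5637483-5648130, plus strand) encodes p65, the main transactivating subunit of the canonical branch. It ranged from 42.1 to 70.2 CPM in control, 57.3 to 86.3 with miR-23a, 48.1 to 93.4 under miR-24 and 58.1 to 93.8 under miR-27a, and the 4 ranges overlapped. Its log2 fold changes were 0.39 ± 0.22, 0.43 ± 0.22 and 0.32 ± 0.22 (adjusted p 0.374, 0.285 and 0.399). Nfkb1 (chr3:135584655-135691547, minus strand), which encodes p105 and its product p50, was the member with the smallest standard errors. It ranged from 265.9 to 386.7 CPM in control, 331.4 to 408.8 with miR-23a, 310.6 to 451.5 under miR-24 and 329.3 to 396.4 under miR-27a. Its log2 fold changes were 0.19 ± 0.17, 0.34 ± 0.17 and 0.17 ± 0.17 (adjusted p 0.599, 0.277 and 0.579), and the 95% interval for miR-24 ran from a fold of 0.986 to 1.63. None of these intervals holds a doubling or a halving of Nfkb1.

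**Figure D2:**
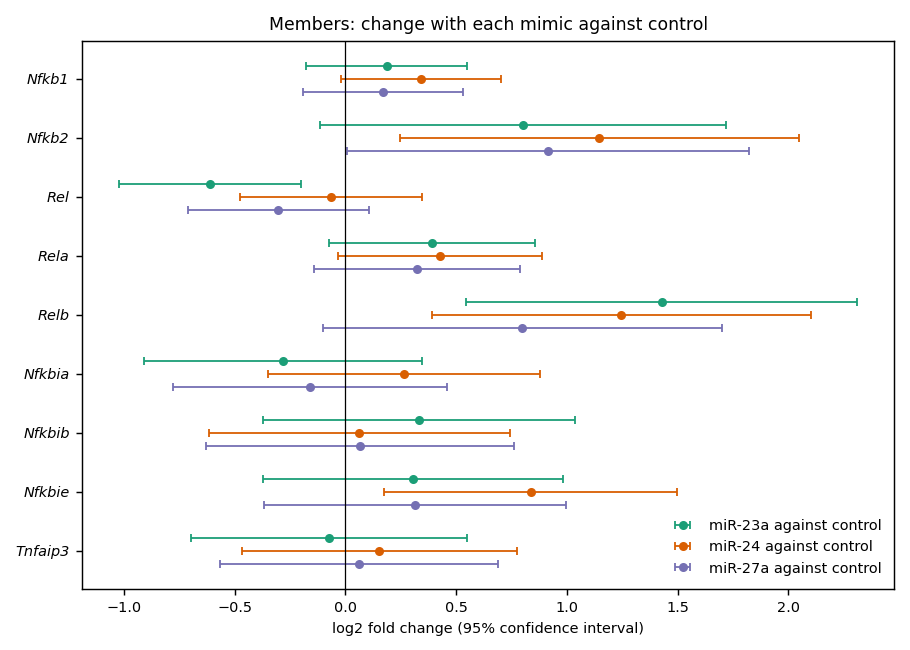
Log2 fold change of each member with miR-23a, miR-24 and miR-27a against control (horizontal axis) from the edgeR fit with replicate number as a block, with bars giving the 95% interval; the vertical line marks no difference. Relb lies farthest right (1.43 with miR-23a) and Rel with miR-23a farthest left (-0.61), and no member passed the adjusted threshold.

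Nfkbia (chr12:55489410-55492647, minus strand) encodes IkBa, which is resynthesised under NF-kB control within the feedback loop. Its control libraries held 32.6, 21.7, 63.0 and 78.6 CPM, with a wider SD (26.4 CPM) than any mimic group. The miR-24 libraries held 77.2, 37.9, 73.1 and 65.9 CPM, the miR-23a libraries 63.0, 33.5, 43.2 and 30.3 CPM, and the miR-27a libraries 39.0, 30.5, 78.7 and 41.6 CPM. The groups overlapped throughout. Log2 fold changes were -0.28 ± 0.30, 0.26 ± 0.29 and -0.16 ± 0.29 for miR-23a, miR-24 and miR-27a (adjusted p 0.651, 0.666 and 0.784). Without control replicate 4 the values were 0.13, 0.71 and 0.26, so that those for miR-23a and miR-27a changed sign.

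Nfkbie (chr17:45555703-45563169, plus strand) encodes IkBe, another inhibitor that retains dimers in the cytoplasm. It held 0, 10.1, 11.6 and 14.0 CPM in control and 19.4, 12.8, 24.8 and 31.9 CPM with miR-24. Only the second miR-24 library lay within the control range. The log2 fold change with miR-24 was 0.84 ± 0.32 (95% interval 0.17 to 1.499, adjusted p 0.142), and 0.55 to 0.99 when each library was left out in turn. Over all 24 alternatives it reached down to 0.37, with adjusted p from 0.0572 to 0.599. With miR-23a (8.88 to 22.7 CPM) and miR-27a (11.0 to 17.7 CPM) it was 0.31 ± 0.32 and 0.31 ± 0.33.

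Nfkbib (chr7:28758251-28767512, minus strand) encodes IkBb. It ranged from 25.8 to 32.6 CPM in control, 21.2 to 42.1 with miR-23a, 12.4 to 44.9 under miR-24 and 20.3 to 43.6 under miR-27a, so that each mimic group extended to both sides of the control range. Its log2 fold changes were 0.33 ± 0.34, 0.06 ± 0.32 and 0.07 ± 0.33. The miR-27a interval ran from -0.63 to 0.76 beside an 8mer for that mimic in its 3′ UTR. Its exons overlap those of Ccer2 and Sirt2 on the opposite strand.

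Tnfaip3 (chr10:19000910-19015657, minus strand) holds a seed match for every mimic. Its libraries held 16.3, 120.8, 158.1 and 84.3 CPM in control and 67.6, 70.8, 143.8 and 104.4 CPM with miR-23a. With miR-24 they held 59.6, 82.5, 166.2 and 153.8 CPM and with miR-27a 78.4, 119.8, 186 and 52.4 CPM. The control value of replicate 1 is a single read, and replicate 3 was the highest in every group. The log2 fold changes were -0.08 ± 0.30 (95% interval -0.70 to 0.55), 0.15 ± 0.30 (-0.47 to 0.77) and 0.06 ± 0.30 (-0.56 to 0.69), with adjusted p of 0.926, 0.822 and 0.930. The interval for miR-23a reaches down to a fold of 0.616, so a lowering of that size is not excluded by it.

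Levels can be compared between members only per length. In control the mean CPM per kilobase of annotated exon was 30.4 ± 16.4 (SD, n = 4) for Nfkbia, 27.2 ± 4.32 for Nfkb1 and 19.0 ± 4.01 for Rela, which did not differ beyond their spread. Tnfaip3 (13.1 ± 8.36), Nfkbib (13.1 ± 1.47), Rel (8.75 ± 1.84) and Nfkb2 (6.91 ± 1.55) followed. The lowest were Nfkbie (2.93 ± 2.03) and Relb (1.23 ± 0.898), which overlapped each other only through the values of 0 in control replicate 1; without it Nfkbie was at 3.32 to 4.60 and Relb at 1.37 to 2.16. The Relb libraries (0 to 2.16) lay below every control value of the 7 members before Nfkbie, and those of Nfkbie (0 to 4.60) overlapped only Tnfaip3 among them, through its value from 1 read. Nfkb1 depended on the length used: over its longest coding transcript (4.117 kb, against 12.061 kb of all exons) it reached 79.7 CPM per kilobase and was the highest.

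Tnfaip3 and Rel differed between replicate numbers. A test of replicate number in the same fit, chosen after these values had been seen, called Tnfaip3 (adjusted p 0.0252) and Rel (adjusted p 0.0498), 2 of 9 members, against 13.7% of all genes. Rel was highest in replicate 1, in control from 5 reads, and lowest in replicate 3 in all 4 groups. Rela and Tnfaip3 were highest in replicate 3 in all 4 groups. Over the 15 libraries without control replicate 1, replicate number accounted for 58.6% of the variation of Tnfaip3 on the log2 scale after group, which itself accounted for 4.85%. For Relb the order was the other way, with 50.1% for group and 4.14% for replicate number. When each of the 16 libraries was left out in turn, the count of members called ranged from 0 to 2, and Rel was called in none of those fits. Tnfaip3 was not called without replicate 1 or 3 of miR-23a, or without replicate 3 of miR-24, miR-27a or control. Nfkbia (adjusted p 0.0578 with all libraries) was called in 5 of them, without replicate 2 or 4 of miR-23a, replicate 4 of miR-24, replicate 1 of miR-27a or replicate 4 of control. What a replicate number stands for is not given in the labels.

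**Figure D3:**
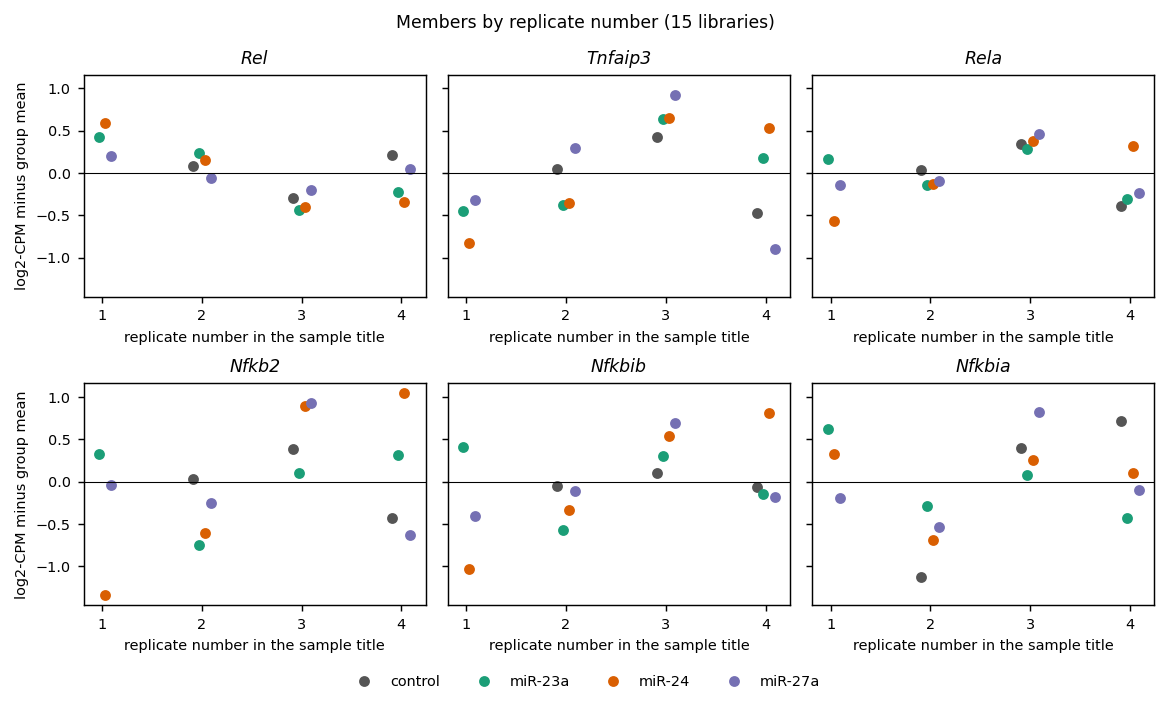
Deviation of each library's log2-CPM from its group mean (vertical axis) by the replicate number of the library (horizontal axis) for 6 members, in 15 libraries without control replicate 1, coloured by group. Rel falls to its lowest in replicate 3 in every group, where Rela and Tnfaip3 are at their highest.

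Within groups Rel ran against several other members. Correlations of the deviations from group means over 15 libraries, which share replicate numbers and so are not independent, were positive for 26 of the 36 pairs of members, with a median r of 0.337. Nfkb2 and Nfkbib had r = 0.917 (rho 0.900), Rela and Nfkbib 0.854 (rho 0.825), Nfkb2 and Rela 0.841 (rho 0.821), and Rela and Tnfaip3 0.810 (rho 0.825). Rel ran against Tnfaip3 at -0.849 (rho -0.821) and against Nfkb2 at -0.730 (rho -0.671). Without the 2 libraries farthest from the median the Rel and Tnfaip3 value was -0.799 and that of Nfkb2 and Nfkbib 0.844. These values are descriptions and carry no test.

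The same members followed a measure of library composition. For each library a score was taken among 4654 genes. It was the mean log2-CPM of genes in the upper quartile of transcript length minus that of genes in the lower quartile. Length was that of the transcript with the longest annotated 3′ UTR, which is not always the longest transcript of a gene. Deviations of Nfkb2 (r = -0.902, rho -0.918), Rela (-0.899, rho -0.904), Tnfaip3 (-0.832, rho -0.846) and Nfkbib (-0.807, rho -0.807) were negatively correlated with the score, and those of Rel positively (0.677, rho 0.668). Without the 2 libraries farthest from the median score r was -0.914, -0.858, -0.806, -0.820 and 0.532. The score averaged 0.53 in the replicate 3 libraries and 0.72 to 0.76 in the other replicate numbers. By group it averaged 0.80 in control (n = 3), 0.73 with miR-23a, 0.62 under miR-24 and 0.66 under miR-27a. A score of GC-rich minus GC-poor transcripts averaged -0.96 in control, -0.30 with miR-23a, -0.58 under miR-24 and -0.47 under miR-27a, and its r was 0.783 with Relb and 0.790 with Rela. Both scores were taken after the members' values had been seen, and their part in the differences between groups was not tested beyond the fits that include them.

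**Figure D4:**
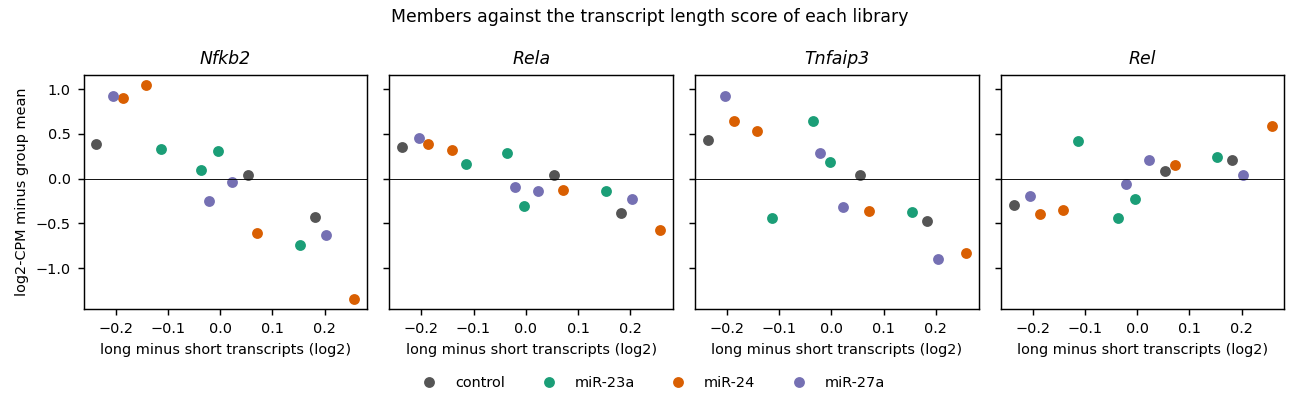
Deviation of log2-CPM from the group mean (vertical axis) against each library's score of long minus short transcripts, centred on its group (horizontal axis, log2), for Nfkb2, Rela, Tnfaip3 and Rel in 15 libraries coloured by group. Nfkb2, Rela and Tnfaip3 decline along the score (r from -0.902 to -0.832) and Rel climbs (r = 0.677).

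The genes most alike in pattern were sought for the 3 members with the smallest p for any difference, among 4746 genes with a mean log2-CPM of at least 5. Over 15 libraries without control replicate 1, log2-CPM of Relb ran closest to that of Dot1l (r = 0.848) and Xab2 (0.837). Rel ran closest to Ifi203 (0.884) and Spag9 (0.883), and Nfkbie to Dpysl2 (0.842) and 1810037I17Rik (0.836). With control replicate 1 included, Spag9 dropped to 0.195 and Dpysl2 to 0.286, so those likenesses held only without that library.

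Some other genes of the pathway were called, from lists written with earlier results of these data known. Their shares beside those of all genes are therefore descriptions and not a test of the pathway. Of 98 listed genes (receptors, antigen receptor route, IKK complex and kinases, ubiquitin and adaptor regulators, nuclear and other IkB proteins, and reported targets), 93 were tested. Against control 0 were called with miR-23a, 7 higher and 4 lower with miR-24 (11.8%, against 4.56% of all genes), and 1 higher and 5 lower with miR-27a (6.45%, against 3.07%). For miR-23a 14 of the 93 reached an unadjusted p under 0.05, where 17.0% of all genes did. DESeq2 called 3 there, and its share of all genes is not given here. Without the replicate block 0 of the 93 were called in any comparison with control (9, 18 and 18 at an unadjusted p under 0.05), so each of these calls rests on the block. Between mimics 6 were called for miR-24 against miR-23a (6.45%, near the 5.38% of all genes), 8 for miR-27a against miR-23a (8.6%, against 2.95%) and 7 for miR-27a against miR-24 (7.53%, against 4.42%). Without the block 0, 0 and 2 were called.

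Of 26 reported targets tested, 4 were higher (Lta, Ier3, Tnf and Cd69) and 1 was lower (Irf4) with miR-24, where 4.56% of all genes were called. Without the block 0 of the 26 were called, where 0.849% of all genes were. As this list was written with earlier results known, its count is a description. Lta, the cytokine lymphotoxin alpha, held 97.7, 67.1, 28.9 and 53.6 CPM in control and 285.5, 182.9, 97.6 and 91.9 CPM with miR-24. It was higher than control within every replicate number, by 1.35 ± 0.24 on the log2 scale (adjusted p 0.00352, without the block 0.166), and stayed called with any 1 library left out. Ier3, an early response gene, rose by 1.61 ± 0.33 (adjusted p 0.00910, without the block 0.141), and Tnf, the TNF cytokine, by 1.03 ± 0.28 (0.0443, without the block 0.419). Ier3 held 23.6, 33.0, 77.4 and 96.0 CPM with miR-24 and 0, 15.6, 27.0 and 14.8 CPM in control. Tnf held 75.7, 98.1, 37.8 and 42.8 CPM with miR-24 and 81.4 (5 reads), 54.0, 10.6 and 19.7 CPM in control. For both genes these groups overlapped, and in replicate 1 Tnf was not higher with miR-24. Nfkbid, a nuclear IkB protein, rose by 1.72 ± 0.38 (0.0159, without the block 0.198) from at most 5.86 CPM in control to 7.45 to 9.68 CPM. Rbck1, a subunit of the linear ubiquitin ligase, rose by 0.93 ± 0.26 (0.0457, without the block 0.122). N4bp1, a ubiquitin-binding regulator, fell by 1.03 ± 0.21 on the log2 scale (0.00852, without the block 0.163). Leaving out 1 library at a time ended the call of Ier3 and N4bp1 in 2 of 16 fits each, of Nfkbid in 3, of Tnf in 9, of Rbck1 in 11, of Cd69 in 12 and of Irf4 in 13. With the length score in the fit the calls of Tnf, Nfkbid, Irf4 and Rbck1 were lost, and with the GC score that of Rbck1. Limma voom did not call Nfkbid, Rbck1 or Cd69. Cd69 and Irf4 also lost their calls without the low-count filter and in the fit of only the libraries compared. That of Irf4 was lost with DESeq2's size factors too. In the miR-24 group the summed T cell markers were also lower, as given above. The summed dendritic cell markers were at 40.3 to 91.0 CPM there, against 16.3 to 50.6 in control, 24.9 to 51.9 in the miR-23a group and 26.8 to 43.3 in the miR-27a group. The part of either marker list in these values was not tested.

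Among receptors with miR-24, Tnfrsf1b (TNF receptor 2) fell and Tnfrsf9 (4-1BB) rose. Tnfrsf1b held 24.6, 34.0, 30.2 and 30.2 CPM with miR-24 and 81.4, 62.7, 61.9 and 45.1 CPM in control, with no overlap. The difference was -0.96 ± 0.22 on the log2 scale (adjusted p 0.0209, without the block 0.0696), and its call was lost in 5 of the 16 fits that left out 1 library. Against the miR-27a group, at 70.7, 75.6, 84.3 and 60.0 CPM, the miR-24 group did not overlap either. The share of all genes without overlap between these mimics is not given here. Tnfrsf1b was higher with miR-27a than with miR-24 by 1.27 ± 0.21 (adjusted p 0.00245, without the block 0.0174, called with any 1 library left out). The 3′ UTR of Tnfrsf1b holds an 8mer and a 7mer-m8 for miR-24, a 7mer-m8 for miR-27a and a 7mer-A1 for miR-23a. A miR-24 8mer lies in 8.94% of tested genes with an annotated 3′ UTR. N4bp1, which fell with miR-24, also holds it. So do Birc3, Ikbkg, Il2ra, Irf1, Otud7b, Ripk1, Sod2, Tnfrsf1a and Traf6, which were not called with miR-24 against control. Tnfrsf9 rose by 1.42 ± 0.39 (adjusted p 0.0484) and Cd27, another costimulatory receptor, fell by 1.26 ± 0.34 on the log2 scale (0.0419), with 0.426 and 0.358 without the block; each was lost in 10 of the 16 fits that left out 1 library. Both calls were also lost with the length score in the fit, and that of Tnfrsf9 with the GC score and without the low-count filter. Cd27 lost its call with DESeq2's size factors. Tnfrsf9 held 27.1, 52.9, 122.5 and 343 CPM with miR-24 and 16.3, 34.0, 57.6 and 50.1 CPM in control, so these groups overlapped. With miR-23a it held similar values of 31.5, 52.8, 117.5 and 292.2 CPM, and with miR-27a 18.7, 27.2, 150.6 and 73.4 CPM. Replicates 3 and 4 were the highest for Tnfrsf9 in every group. Limma voom called none of Tnfrsf1b, Tnfrsf9 and Cd27 with miR-24 against control. The fit of only the libraries compared did not call Tnfrsf1b against control either.

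With miR-27a, Cd28 fell. This costimulatory receptor feeds the antigen receptor route and held 1433, 2620, 2243 and 2195 CPM in control and 794.9, 1220, 1038 and 1088 CPM with miR-27a, with no overlap. The difference was -1.02 ± 0.15 on the log2 scale (adjusted p 0.00196, without the block 0.0707), called with any 1 library left out. With miR-23a its log2 fold change against control was -0.34 ± 0.15 (adjusted p 0.261). Cd28 averaged 1516 CPM with miR-24 against 2123 in control. Its call between miR-27a and miR-24 was lost in 14 of 16 fits that left out 1 library. Its 3′ UTR holds 2 7mer-m8 matches for miR-23a, 2 7mer-A1 matches for miR-24 and an 8mer for miR-27a. Such an 8mer lies in 6.61% of tested genes with an annotated 3′ UTR. Irf4, Map3k14, Icam1, Traf3, Tab3 and Ccl4 also hold it and were not called with miR-27a against control. The Cd28 8mer, picked after its values were seen, is shown with 8 bases on either side (plus strand, GRCm38).
Cd28, miR-27a 8mer, chr1:60770772-60770795: gtcatgatACTGTGAAcaaaaagg
Il2ra, the IL-2 receptor alpha chain, fell by 0.98 ± 0.17 on the log2 scale (adjusted p 0.00450, without the block 0.235), and its 3′ UTR holds 8mers for miR-24 and miR-27a and a 7mer-A1 for miR-24. Nfkbiz, a nuclear IkB protein, fell by 1.21 ± 0.24 (0.0119, without the block 0.0908), from 94.8 to 182.4 CPM in control to 36.6 to 84.8 CPM. Cd69, an early activation marker, fell by 0.83 ± 0.20 (0.0281) and Cd27 by 1.58 ± 0.35 (0.0205), with 0.244 and 0.230 without the block. Lck, the kinase at the T cell receptor, rose by 1.16 ± 0.29 (0.0336, without the block 0.163) and lost its call with either score of library composition in the fit. Leaving out 1 library at a time ended the call of Nfkbiz in 3 of 16 fits, of Cd27 in 4, of Cd69 in 5 and of Lck in 7, and that of Il2ra in 0. Cd69 also differed between mimics, lower with miR-27a than with miR-24 by -1.54 ± 0.19 (adjusted p 0.000247, without the block 0.0417), the only other listed gene to be called in that comparison in both fits.

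**Figure D5:**
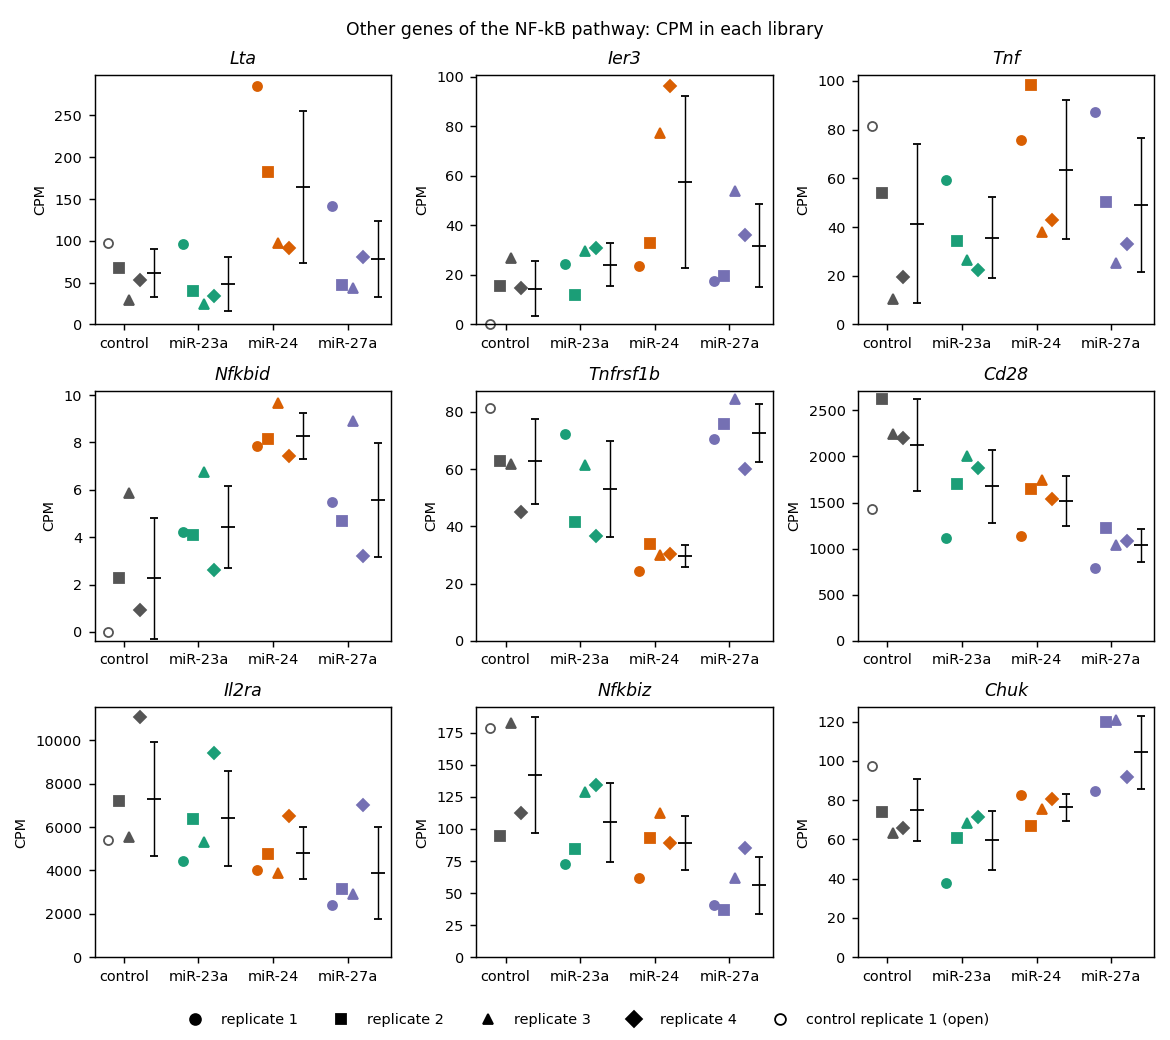
CPM of 9 other pathway genes (vertical axis, linear) in each of the 16 libraries by mimic group (horizontal axis), with the marker shape giving the replicate number and bars showing mean ± SD of 4 libraries; the open circle is control replicate 1. Tnfrsf1b with miR-24 (24.6 to 34.0 CPM) and Cd28 with miR-27a (794.9 to 1220 CPM) lie below all control libraries.

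Of 11 listed genes of the IKK complex and its kinases, edgeR called 0 against control with each mimic (2, 2 and 4 at an unadjusted p under 0.05), where 0.425%, 4.56% and 3.07% of all genes were called, so that a count of 0 among 11 is near the background. Chuk, which encodes the kinase IKKa of the non-canonical branch, was named after its values were seen. It held 38.0, 60.6, 68.2 and 71.2 CPM with miR-23a and 84.9, 119.8, 121.1 and 91.8 CPM with miR-27a, which did not overlap, and was higher with miR-27a by 0.82 ± 0.21 (adjusted p 0.0352, without the block 0.113, lost in 7 of 16 fits that left out 1 library). The share of all genes without overlap between miR-27a and miR-23a is not given here. Against control the log2 fold change of Chuk was -0.20 ± 0.22 with miR-23a and 0.62 ± 0.22 with miR-27a (adjusted p 0.662 and 0.118). Chuk holds an 8mer for miR-23a in its 3′ UTR. Such an 8mer lies in 7.23% of tested genes with an annotated 3′ UTR. Irak1, N4bp1, Tab3, Traf1 and Xiap also hold it, and no listed gene was called with miR-23a against control.

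NF-kB dimers bind the kappaB motif, through which the feedback loop runs. The consensus was searched on both strands from 250 bases before to 50 bases after each RefSeq gene start (GRCm38.p6), where 9.55% of 27025 genes held it. Of the 7 members with an entry it was present in 5 (Nfkb2, Rel, Nfkbia, Nfkbie and Tnfaip3) and not in the windows of Rela and Nfkbib. The examples below, in the direction of the gene with the motif in capitals, are from Rel and Tnfaip3, whose deviations ran against each other across libraries, and from Nfkbia. Matches on both strands can overlap, and a match is not a site of binding.
Rel, chr11:23771044-23771069, minus strand: taagcagcGGGAAATCCCcccccctc
Tnfaip3, chr10:19015405-19015430, minus strand: tttccatcGGAAATCCCCctgttggc
Nfkbia, chr12:55492659-55492684, minus strand: actggcttGGAAATTCCCcgcgcctg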

How the data were processed

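RNA was sequenced from 16 libraries as single-end reads on an Illumina HiSeq instrument, 4 libraries per lane, from 1 ng of RNA amplified with the Ovation RNA-Seq V2 kit, per the labels' protocols. The deposited values are raw counts per gene symbol that the authors made. The submitters' processing notes name mm10, Bowtie2, TopHat and DESeq without versions, and strand setting and annotation are not given in the sources used here. The 5 summary lines of each count file, 64.65% to 77.62% of its total, were left out. Groups came from the sample labels.

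Counts were tested in R 4.3.3 with edgeR 4.0.16 (TMM, filterByExpr by group, robust quasi-likelihood fit over all 16 libraries, replicate number as a block), with Benjamini-Hochberg adjustment and a threshold of 0.05. A standard error is the log2 fold change divided by the root of F. Log2-CPM used a prior count of 2. Intervals are 95% and cover counting error and the spread between libraries only. DESeq2 1.42.0, limma 3.58.1 (voom), other size factors, no low-count filter, only the libraries compared, no block and each library left out were alternatives. The fit was tested on simulated data.

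Same-numbered libraries deviated together (r over 0.1 in all 4 pairs) in 3 of the 6 comparisons over the 4746 more abundant genes (average log2-CPM above 5), from 0.198 to 0.671, and in 3 of 4 pairs in the others, down to -0.121. Over all 12952 tested genes this held in 2 of the 6 comparisons, and in 2 of 4 pairs for control with miR-23a. The labels do not say what a number marks, so values without the block are printed as well. Genes were named by rule: all members, up to 3 called genes of each pathway list with the smallest adjusted p in each comparison with control (Irf4, Chuk and, with miR-24, Cd69 were named outside it, after their values were seen), and for 3 members the 2 genes of most similar pattern. The members and lists were chosen with earlier results of these data known. Pdk1 was taken off a list after results were seen, since another gene had been meant; it was called in no comparison.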

Additional observations from a re-analysis of the deposited data

Results flagged for a closer look

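In 3 of 36 sets of 4 libraries (9 members in 4 groups) 1 library stood apart from the other 3 by Dixon's criterion, which chance meets in about 1 set in 20. Nfkb1 in miR-24 replicate 1 was at 310.6 CPM, against 445.6 to 451.5 in the other miR-24 libraries. Rela in miR-27a replicate 3 was at 93.8 CPM, against 58.1 to 63.9. Relb in miR-23a replicate 1 was at 28.1 CPM, against 13.5 to 15.7, and those 3 libraries also lay above all control libraries.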

How the results depend on the processing

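Of the alternatives tried, the fits with a library score of transcript length or GC content, the leave-one-out fits of the replicate-number test and those of the listed pathway genes were chosen after seeing the data.

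In the fit without the replicate block 0 of the 9 members were called in every comparison, as with the block, and the counts at an unadjusted p under 0.05 were 1 for miR-23a against control, 3 for miR-24 against control, 1 for miR-27a against control, 1 for miR-24 against miR-23a, 0 for miR-27a against miR-23a, 0 for miR-27a against miR-24. The count of members called with DESeq2 was 1 (Relb) for miR-23a against control, 1 (Relb) for miR-24 against control, 1 (Rel) for miR-24 against miR-23a and 2 (Rel and Relb) for any difference among the 4 groups. The count of members called in fits of only the libraries compared was 1 (Relb) for miR-24 against control and 1 (Nfkb2) for miR-27a against control. The count of members called with the replicate block and the transcript length score was 1 (Rel) for miR-24 against miR-23a and 1 (Rel) for any difference among the 4 groups. When each library was left out in turn, the count ranged from 0 to 2 for any difference among the 4 groups and from 0 to 1 for miR-23a against control. It ranged from 0 to 2 for miR-24 against control and for replicate number, and was 0 in all 16 such fits for the other 4 comparisons. For these alternatives the share of all genes reaching the same level is not given here, except at the adjusted threshold without the block. Such counts of members therefore cannot be set against a background.

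For the 93 other pathway genes the counts called with the block were 0 for miR-23a against control, 11 for miR-24 against control, 6 for miR-27a against control, 6 for miR-24 against miR-23a, 8 for miR-27a against miR-23a and 7 for miR-27a against miR-24. Without the replicate block they were 0 for miR-24 against control, 0 for miR-27a against control, 0 for miR-24 against miR-23a, 0 for miR-27a against miR-23a and 2 for miR-27a against miR-24. Without the filter on low counts they were 1 for miR-23a against control. With DESeq2 they were 3 for miR-23a against control, 14 for miR-27a against control, 15 for miR-24 against miR-23a and 12 for miR-27a against miR-24. With limma voom they were 3 for miR-24 against miR-23a and 12 for miR-27a against miR-24. In fits of only the libraries compared they were 1 for miR-23a against control, 22 for miR-27a against control, 5 for miR-27a against miR-23a and 2 for miR-27a against miR-24. With the replicate block and the transcript length score they were 1 for miR-23a against control, 6 for miR-24 against control, 16 for miR-24 against miR-23a, 15 for miR-27a against miR-23a and 14 for miR-27a against miR-24. With the replicate block and the transcript GC score they were 14 for miR-24 against miR-23a, 14 for miR-27a against miR-23a and 17 for miR-27a against miR-24. Leaving out 1 library at a time gave 0 to 5 for miR-23a against control, 2 to 23 for miR-24 against control and 2 to 17 for miR-27a against control. Between mimics it gave 1 to 10 for miR-24 against miR-23a, 1 to 9 for miR-27a against miR-23a and 2 to 9 for miR-27a against miR-24. Calls among all genes moved over these alternatives too, from 22 to 1883 for miR-27a against control. Between mimics they ranged from 142 to 1705 (miR-24 against miR-23a), 71 to 1016 (miR-27a against miR-23a) and 114 to 1448 (miR-27a against miR-24). The share of all genes in each fit is not given here, so a change in these counts is not a result about the pathway.

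The log2 fold changes of members that changed sign were uncalled with all libraries, and the cause was not tested. Without the replicate block, the values were 0.0582 for Rel (miR-24 against control), -0.0339 for Nfkbie (miR-27a against miR-23a) and -0.0144 for Nfkbib (miR-27a against miR-24). With DESeq2's size factors, the values were 0.0073 for Rel (miR-24 against control), -0.0123 for Nfkbie (miR-27a against miR-23a) and -0.0568 for Nfkbib (miR-27a against miR-24). Without the filter on low counts, the values were -0.0193 for Nfkbie (miR-27a against miR-23a) and -0.0198 for Nfkbib (miR-27a against miR-24). With DESeq2, the values were 0.0037 for Rel (miR-24 against control), -0.0136 for Nfkbie (miR-27a against miR-23a) and -0.0553 for Nfkbib (miR-27a against miR-24). With limma voom, the values were 0.12 for Relb (miR-24 against miR-23a), 0.0192 for Nfkb1 and 0.0197 for Rela (miR-27a against miR-23a) and -0.0214 for Nfkbib and 0.0459 for Tnfaip3 (miR-27a against miR-24). In fits of only the libraries compared, the values were -0.0639 for Tnfaip3 (miR-27a against control) and -0.0088 for Nfkbie (miR-27a against miR-23a). With the replicate block and the transcript length score, the values were 0.0905 for Rel, -0.53 for Nfkbib and -0.44 for Tnfaip3 (miR-24 against control), -0.34 for Nfkbib, -0.0634 for Nfkbie and -0.45 for Tnfaip3 (miR-27a against control) and -0.24 for Nfkb2, -0.16 for Rela and -0.0614 for Tnfaip3 (miR-24 against miR-23a). The same fit gave -0.17 for Nfkb2, -0.13 for Nfkbie and -0.0756 for Tnfaip3 (miR-27a against miR-23a) and 0.0656 for Nfkb2 (miR-27a against miR-24). With the replicate block and the transcript GC score, the values were -0.0648 for Nfkb1, -0.18 for Nfkb2, -0.38 for Nfkbib and -0.20 for Nfkbie (miR-23a against control), 0.0572 for Rel, -0.39 for Nfkbib and -0.21 for Tnfaip3 (miR-24 against control) and -0.0118 for Nfkb1, -0.40 for Nfkbib, -0.0652 for Nfkbie and -0.37 for Tnfaip3 (miR-27a against control). The same fit gave 0.0508 for Relb (miR-24 against miR-23a), 0.053 for Nfkb1 and 0.0474 for Rela (miR-27a against miR-23a) and -0.0102 for Nfkbib (miR-27a against miR-24).

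With 1 library left out at a time, the log2 fold changes that changed sign were -0.0857 to 0.0973 for Nfkb1, -0.0912 to 0.50 for Nfkb2, -0.12 to 0.32 for Nfkbia, -0.42 to 0.14 for Nfkbib, -0.17 to 0.25 for Nfkbie, -0.14 to 0.10 for Rela and -0.0049 to 0.43 for Tnfaip3 in miR-27a against miR-23a. For miR-24 against miR-23a they were -0.18 to 0.76 for Nfkb2, -0.62 to 0.0929 for Nfkbib, -0.19 to 0.23 for Rela, -0.48 to 0.28 for Relb and -0.10 to 0.36 for Tnfaip3. For miR-27a against miR-24 they were -0.61 to 0.22 for Nfkb2, -0.28 to 0.36 for Nfkbib, -0.28 to 0.13 for Rela and -0.24 to 0.23 for Tnfaip3. For miR-23a against control they were -0.56 to 0.13 for Nfkbia and -0.18 to 0.14 for Tnfaip3. For miR-27a against control they were -0.42 to 0.26 for Nfkbia, -0.10 to 0.27 for Nfkbib and -0.0817 to 0.35 for Tnfaip3. For miR-24 against control they were -0.32 to 0.28 for Nfkbib, -0.14 to 0.0717 for Rel and -0.18 to 0.38 for Tnfaip3.

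Over all genes the calls against control numbered 55, 591 and 398 with the block for miR-23a, miR-24 and miR-27a and from 12 to 364, 110 to 1490 and 22 to 1883 over 24 alternatives, the lowest for miR-24 and miR-27a being those without the block. The control level of Nfkb1 was 79.7 CPM per kilobase over its longest transcript, against 27.2 over all exons. Depth limits control replicate 1 most.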
